A study of Mus musculus with 4 samples.

Results

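The mitochondrial ribosomal protein genes were examined in lymph node B cells of mice with a transgene for the microRNA miR-146a. Members were the genes whose symbol in the array's annotation begins with Mrpl or Mrps and a number, counted only through probe sets (groups of array probes for 1 transcript) that the annotation gives to a single gene. The rule used names only and no measured value, but it was set with earlier results of these data known. It gave 73 genes with 129 probe sets, of 17097 genes with a single-gene probe set and 45037 probe sets in all. A further 6 probe sets shared with another gene were left out. Where a gene had several probe sets, the brightest in the mean of all 4 arrays stood for it.

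Mitochondrial ribosomes translate the few proteins encoded by mitochondrial DNA, all of them core subunits of the respiratory chain and ATP synthase. Their RNA comes from mitochondrial DNA, but every protein of the small and large subunit is encoded in the nucleus, made in the cytosol and imported. Some have relatives in bacterial ribosomes and others occur in mitochondria alone. B cells are known to enlarge their mitochondrial protein synthesis when activation drives them to grow and divide.

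The study compared 2 groups of male Balb/C mice, aged 6 to 8 weeks. WT mice were wild type, and TG mice were miR-146a transgenic. Each group held 2 mice with 1 Affymetrix array each, 4 arrays in all, made from total RNA of B cells taken from lymph nodes by magnetic removal of other cells, with dead cells removed. The sources used here name neither the transgene's promoter nor the litters. The mature microRNA that the transgene's name refers to is shown because it defines the TG group, with its seed (bases 2 to 8) in capitals, from RefSeq's GRCm38.p6 annotation (chr11:43374435-43374456, minus strand).
mmu-miR-146a-5p: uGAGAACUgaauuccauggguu

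The 2 TG arrays were not alike, and the members' values turn on that. On TG mouse 1 the median signal over all probe sets was 4.48 and the upper quartile 6.14 (log2), against 4.59 to 4.61 and 6.51 to 6.56 on the other 3 arrays. There the beta-actin control for the 3' end read 0.47 above the control for the transcript's middle, and on the others 0.14 to 0.16 above it. The Gapdh controls did not set that array apart in the same way: the 3' end minus the 5' end was 0.075 and 0.093 in WT, 0.018 on TG mouse 1 and -0.20 on TG mouse 2. Across probe sets the 2 WT arrays differed with an SD of 0.12 and the 2 TG arrays with an SD of 0.32. Markers of B cells were strong but lower in both TG arrays: all 9 measured lay below both WT values, none was under the level of the filter on dim probe sets (4.10), and their summed linear signal was 12520 and 13180 in WT and 6737 and 7090 in TG. The summed signal of 11 neutrophil markers was 399 and 403 in WT, where Lcn2, Chil3 and Mmp9 lay under the filter level, and 1679 and 2304 in TG. That of 10 T cell markers was 9238 and 9345 in WT and 11520 and 13130 in TG, with no marker under the filter level in either group. Among them Cd8a differed by 1.14 and Cd4 by -0.79, so the sum does not describe each marker. Monocyte markers summed to 1277 and 1298 in WT and 1697 and 2034 in TG. Erythroid and platelet markers summed to 3959 and 3999 in WT and 4641 and 5416 in TG. Lyz2 (10.05 and 10.01 in WT) and Hba-a1 (11.94 and 11.92) were by far the brightest and dominate these sums. Csf1r, Cd68, Itgam and Pf4 overlapped between the groups, and Itgam, Pf4 and Ppbp lay under the filter level in WT. Natural killer markers summed to 1389 and 1405 in WT and 1236 and 1451 in TG. Gzma (9.83 and 9.82 in WT) dominates that sum and differed by -0.96. The other 5 of the 6 markers had a change above 0, with Eomes at 1.17 and Prf1 at 0.44, so the sum does not describe each marker. Plasma cell markers summed to 2401 and 2334 in WT and 1886 and 2007 in TG. Among them Jchain differed by -0.65, Prdm1 by 0.43 and Xbp1 by 0.03, and Tnfrsf17 lay under the filter level in WT. Markers of stroma and endothelium summed to 184 and 198 in WT and 166 and 152.5 in TG. Pecam1 (6.98 and 7.15 in WT) dominates that sum, and Col1a1, Col3a1, Lyve1 and Prox1 lay under the filter level in WT. Xist, the RNA of the inactive X chromosome in female cells, read 5.96 and 6.19 in WT and 9.13 and 9.56 in TG although all 4 mice are labelled male, while the Y-linked gene Eif2s3y was measured on every array (7.80 to 8.34). The part of these differences in the members' values was not tested. Fewer cells of a type and less RNA per cell cannot be told apart in bulk samples.

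The first question was whether transcripts of the mitochondrial ribosome differed between TG and WT B cells. As a group they read lower in TG, with a median log2 change of -0.23 over the 73 genes (1.17-fold), but no single member passed the test. The median distance to the WT mean was -0.44 on TG mouse 1 and -0.02 on TG mouse 2, so the group value rested mostly on 1 array. Genes of like signal, 1639 genes whose mean signal lay between the members' quartiles, had a median change of -0.18. The changes ran from -0.61 for Mrps11 to 0.23 for Mrps6. Of the 73 genes, 64 (87.7%) had a change below 0, against 59.1% of all probe sets and 68.2% of those above a filter on dim signals, while 8 lay above 0 and Mrpl1 at 0.00. Of the 1639 genes of like signal, 1243 had a change below 0 and 396 above it. In 33 genes (45.2%) both TG values lay below both WT values, and in none did both lie above. Over all probe sets the same was seen for 31.4% on the lower side and 17.7% on the higher side, and over the 27022 probe sets above the filter level, where all 73 representatives lay, for 39.8% and 14.7%. By limma, with Benjamini-Hochberg adjustment across the 45037 probe sets and a threshold of 0.05, none of the 73 passed, and of all probe sets 0.0466% did. At an unadjusted p under 0.05 by limma there were 7 members (9.59%), all lower, against 13.7% of all probe sets, and limma with a trended and robust variance called none either (4 at an unadjusted p under 0.05). The smallest adjusted p by limma was 0.226. For a single gene the lowest two-sided p that an exact permutation test of 2 against 2 arrays allows is 0.333.

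The 2 TG arrays differed in how far the members lay from WT. On TG mouse 1, 69 of the 73 genes (94.5%) lay below both WT values, only Mrpl1 lay above both (28.9% of all probe sets did), and the median distance to the WT mean was -0.44. On TG mouse 2, 34 (46.6%) lay below both WT values, 28 (38.4%) above both and 11 between them, with a median of -0.02. Over all probe sets 59.2% lay below both WT values on TG mouse 1, and 38.8% below and 40.3% above on TG mouse 2. Among the probe sets above the filter level 72.1% lay below on TG mouse 1, and 43.2% below and 41.1% above on TG mouse 2. Of the 1639 genes of like signal, 1336 lay below on TG mouse 1, and 771 below and 708 above on TG mouse 2. Without TG mouse 1 the members' median change was therefore -0.02 and 3 members passed limma (4.11%, against 9.19% of all probe sets). Without TG mouse 2 it was -0.44 and 53 passed, all lower (72.6%, against 42.4% of all probe sets, with 32.9% of all probe sets passing as lower, and 54.8% of those above the filter level). In both fits the lone TG array is assumed to vary like the close WT pair.

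**Figure D1:**
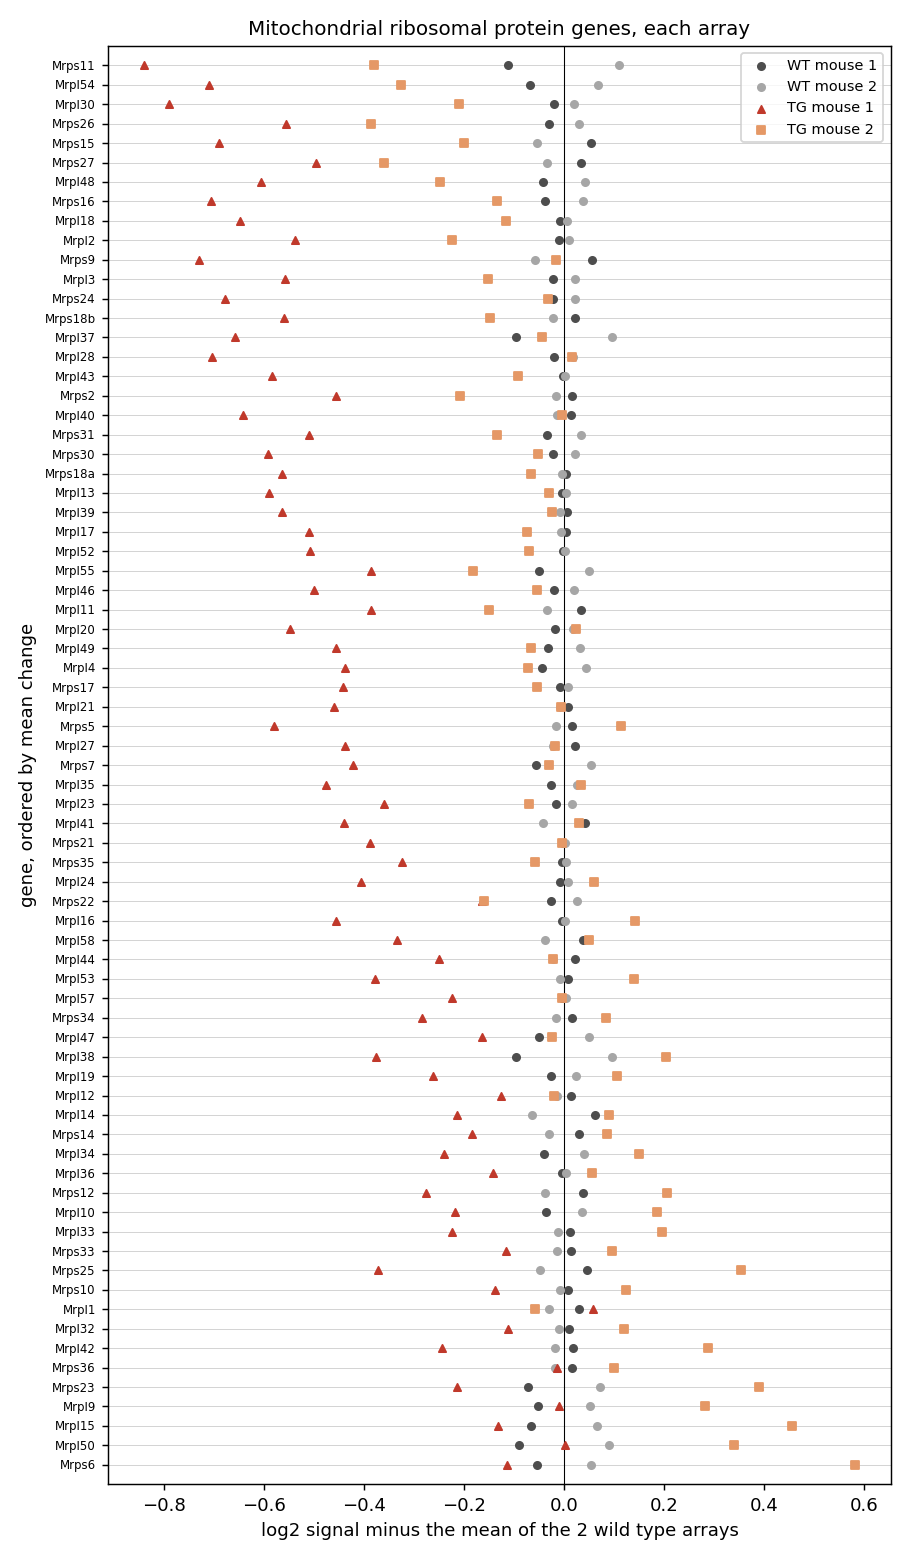
Each row is 1 of the 73 genes, ordered by its mean change, and each point is 1 array: the deposited log2 signal minus the mean of the 2 wild type arrays, with circles for WT, triangles for TG mouse 1 and squares for TG mouse 2. The triangles lie to the left of both circles in 69 rows, while the squares lie left in 34 rows and right in 28.

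Genes of like signal were also lower in median. The members' representatives read 4.21 to 10.75 over the arrays, above the non-specific controls at 2.83 to 2.95, and Mrpl47, the dimmest, lay below the median of every array. Over all 17097 genes the median change was -0.05, but over the 1639 genes whose mean signal lay between the members' quartiles (7.79 to 8.74) it was -0.18, with -0.33 on TG mouse 1 and -0.01 on TG mouse 2. The 37 members in that signal range had a median of -0.25, with -0.45 and -0.02. The share that lay lower without overlap was 45.9% of these 37 members (17 genes) and 46.0% of the 1639 genes (754). After quantile normalization, which gives the 4 arrays 1 common distribution, the median of all 73 members was -0.05. It was -0.08 for the 37 members in the signal range and -0.01 for the 1639 genes. Of these 37 members 16 (43.2%) then lay lower and 11 higher without overlap, and of the 1639 genes 555 (33.9%) and 540. Of the 73 members 45 then lay below 0 and 28 above, since 19 that had been below 0 turned. Over all 45037 probe sets 21866 then lay below 0 and 23170 above, and of the 1639 genes 840 and 799. Then 29 members (39.7%) lay lower without overlap, each of them among the 33, and 18 (24.7%) higher, against 26.4% and 26.2% of all probe sets, and still no member passed limma although 870 probe sets (1.93%) did. The smallest adjusted p was then 0.145, for Mrpl50 on the higher side.

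**Figure D2:**
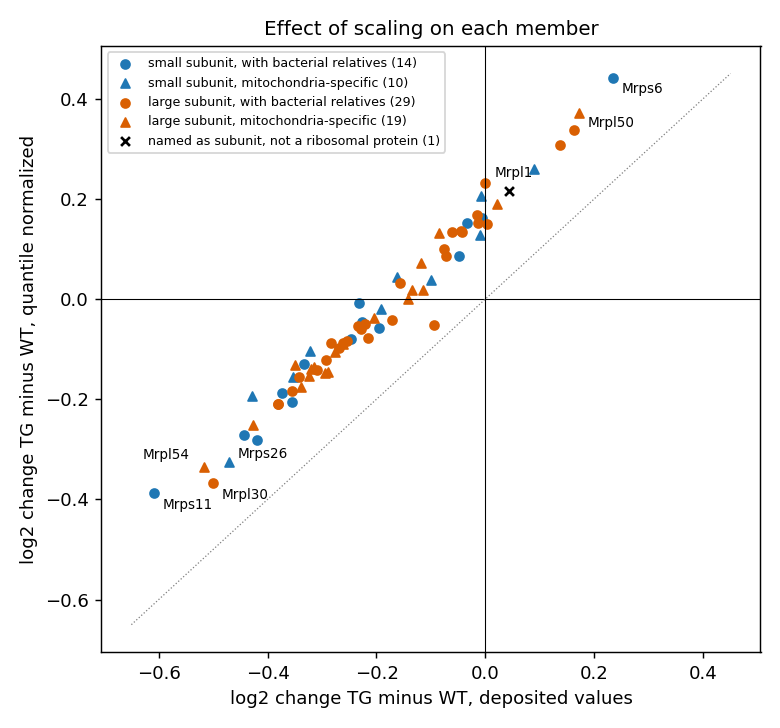
Each point is 1 gene, with its log2 change TG minus WT in the deposited values on the x axis and after quantile normalization on the y axis; colours give the subunit, symbols whether the protein has bacterial relatives, and the dotted line marks equal values. All 73 points lie above the dotted line, and Mrps11, Mrpl30, Mrpl54 and Mrps26 are the lowest on the y axis.

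In the small subunit, which binds the messenger RNA and reads its codons, 24 genes had a median change of -0.23, with 13 lower without overlap (54.2%). That share was 39.8% of all probe sets above the filter level and 46.0% of the 1639 genes of like signal. After quantile normalization the median was -0.05, with 11 lower (45.8%) and 6 higher. Over all probe sets 26.4% were then lower and 26.2% higher, and 33.9% of the 1639 genes were lower. The difference between the subunits was not tested. Mrps11, a protein of the subunit's platform with relatives in all ribosomes, read 7.04 and 7.26 in WT and 6.31 and 6.77 in TG. Both TG values lay below both WT values, and the difference was the largest of all members (log2 change -0.61, SE 0.19, limma adjusted p = 0.307, 1.53-fold). Mrps26, a mitochondria-specific protein, read 9.34 and 9.40 in WT and 8.81 and 8.98 in TG. Both TG values lay below both WT values (log2 change -0.47, SE 0.11, limma adjusted p = 0.226). Mrps27, also mitochondria-specific, read 6.55 and 6.48 in WT and 6.02 and 6.15 in TG (log2 change -0.43, SE 0.11, limma adjusted p = 0.241). For both genes each TG array lay clearly below both WT arrays, with TG mouse 2 at -0.39 (Mrps26) and -0.36 (Mrps27) from the WT mean. Mrps2, a conserved protein, read 7.43 and 7.40 in WT and 6.96 and 7.21 in TG (log2 change -0.33), and its second probe set differed by 0.09.

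Other small subunit genes without overlap were lower mainly on TG mouse 1. Mrps15 read 8.89 and 8.78 in WT and 8.14 and 8.63 in TG, and Mrps16 read 9.49 and 9.56 in WT and 8.82 and 9.39 in TG. Mrps31 differed by -0.32 and Mrps18b by -0.35, with TG mouse 2 at -0.13 and -0.15 from the WT mean. For Mrps22 the 2 TG arrays read alike, 7.09 on each, against 7.23 and 7.28 in WT (log2 change -0.16, and 0.04 after quantile normalization). Mrps22 was named after its values were seen. Mrps6, a conserved protein of the platform, was the member with the highest change, 7.13 and 7.23 in WT and 7.07 and 7.76 in TG. Only TG mouse 2 lay above WT, so the groups overlapped (log2 change 0.23, SE 0.25, limma adjusted p = 0.703), and without TG mouse 1 the change was 0.58 (limma adjusted p = 0.0243). Mrps23, mitochondria-specific, read 8.16 and 8.31 in WT and 8.02 and 8.63 in TG, on opposite sides of the WT values. Its other probe sets differed by -0.14 and -0.34, against 0.09 for the representative.

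**Figure D3:**
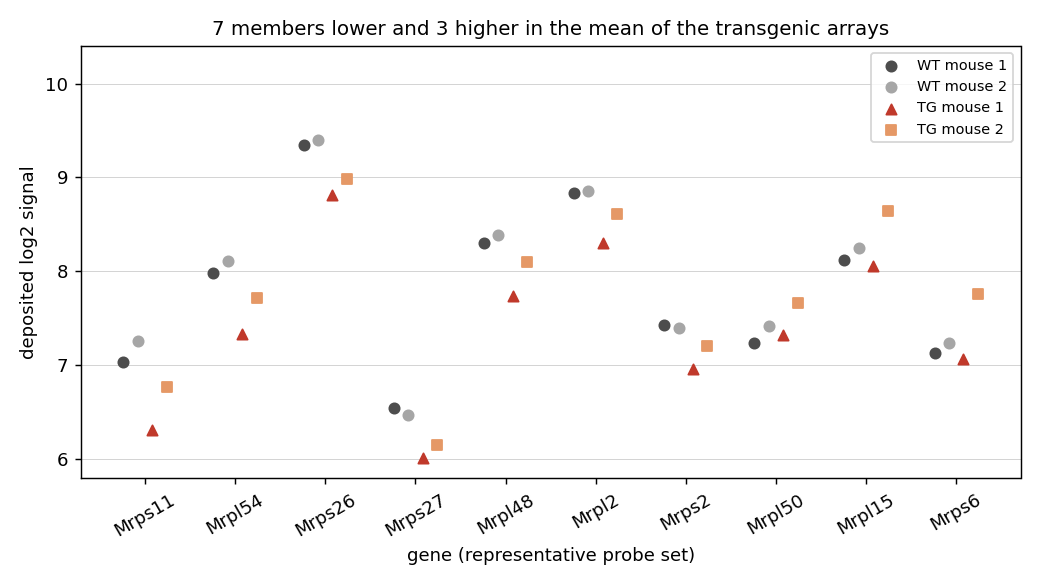
Deposited log2 signal (y axis) of 10 members on each of the 4 arrays: the 7 with an unadjusted limma p under 0.05, all lower, and Mrpl50, Mrpl15 and Mrps6, the 3 with the highest changes. For the 7 genes on the left both TG points lie under both WT points, and for the 3 on the right TG mouse 2 lies above WT while TG mouse 1 does not.

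The large subunit, which joins amino acids into protein, had 48 genes with a median change of -0.22. Of these, 20 (41.7%) were lower without overlap, against 39.8% of all probe sets above the filter level and 46.0% of the 1639 genes of like signal. After quantile normalization the median was -0.06, with 18 lower (37.5%) and 11 higher. Over all probe sets 26.4% were then lower and 26.2% higher, and 33.9% of the 1639 genes were lower. Mrpl54, a mitochondria-specific protein, read 7.98 and 8.11 in WT and 7.34 and 7.72 in TG. The groups did not overlap (log2 change -0.52, SE 0.16, limma adjusted p = 0.307), but a dimmer probe set of the gene, near 4.34, differed by 0.02. Mrpl48, also mitochondria-specific, read 8.31 and 8.39 in WT and 7.74 and 8.10 in TG (log2 change -0.43, SE 0.15, limma adjusted p = 0.345). Mrpl2, a conserved protein close to the site of peptide bond formation, read 8.83 and 8.85 in WT and 8.30 and 8.62 in TG (log2 change -0.38, SE 0.14, limma adjusted p = 0.354). Mrpl30 read 10.71 and 10.75 in WT and 9.94 and 10.52 in TG, a difference of -0.50 with an SE of 0.21 that came mostly from TG mouse 1. Mrpl3 differed by -0.36, Mrpl43 by -0.34 and Mrpl55 by -0.28, all without overlap. The 2 genes that carry a small subunit symbol but whose proteins sit in the large subunit, Mrps30 and Mrps18a, differed by -0.32 and -0.31; they were named after their values were seen.

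On the higher side of the large subunit, Mrpl50, mitochondria-specific, read 7.24 and 7.42 in WT and 7.33 and 7.67 in TG, and its dimmer probe set differed by -0.19. Mrpl15 read 8.12 and 8.25 in WT and 8.05 and 8.64 in TG (log2 change 0.16, SE 0.22, limma adjusted p = 0.766), and its other probe set differed by 0.08. Mrpl9 differed by 0.14, with TG mouse 2 at 0.28 and TG mouse 1 at -0.01 from the WT mean. Without TG mouse 1 Mrpl15 differed by 0.46 and passed (limma adjusted p = 0.0462), which together with Mrps6 and, on the lower side, Mrps26 (-0.39, limma adjusted p = 0.0464) made the 3 calls of that fit. Mrpl42 and Mrpl32 differed by 0.02 and 0.00, with the 2 TG arrays on opposite sides of WT. Mrpl1 read 6.31 and 6.25 in WT and 6.34 and 6.22 in TG.

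The 3 proteins of the stalk that recruits translation factors, or of its base, had changes of -0.27 (Mrpl11), -0.07 (Mrpl12) and -0.02 (Mrpl10). After quantile normalization Mrpl12 and Mrpl10 turned to 0.09 and 0.17, and after centring each array on its median Mrpl10 was 0.04. Of 4 measured proteins around the exit of the peptide tunnel, Mrpl17 differed by -0.29, Mrpl23 by -0.22, Mrpl24 by -0.17 and Mrpl47 by -0.09, and the first 2 did not overlap. The dimmer probe set of Mrpl17 went the other way without overlap (4.57 and 4.52 in WT, 4.64 and 4.82 in TG), and the mean of both probe sets differed by -0.054. Mrpl24, at 9.85 and 9.86 in WT, read 9.45 on TG mouse 1 and 9.92 on TG mouse 2. The 43 genes with bacterial relatives had a median of -0.23 and the 29 mitochondria-specific ones of -0.26. The remaining gene, Mrps36, carries a ribosomal symbol but is known as a component of the oxoglutarate dehydrogenase complex. It read 8.22 and 8.19 in WT and 8.19 and 8.31 in TG (log2 change 0.04).

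The spread between mice was wider in TG than in WT for 72 of the 73 genes, with a median SD of 0.29 against 0.03 (n = 2 each). Across the members the difference between the 2 TG mice had an SD of 0.17 and that between the 2 WT mice an SD of 0.07. These SDs leave out a shift shared by the genes. The median absolute difference between the TG mice was 0.41 over the members and 0.22 over all probe sets. Between the WT mice it was 0.05 and 0.07. Of the 38 genes with more than 1 probe set, 12 had probe sets whose changes differed in sign, and Mrpl54 and Mrps14 did so by more than 0.5. Mrps14 read 9.83 and 9.77 in WT and 9.62 and 9.89 in TG on its brightest probe set, a change of -0.05, while its probe set near 3.99 differed by -0.49.

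Promoters are shown because transcripts of the mitochondrial ribosome are known to share regulators of housekeeping genes. The members shown have the lowest or highest change or the smallest limma p, or, for Mrpl46, lie next to such a gene. None of them passed the test. RefSeq's table for GRCm38.p6 gave 71 promoter windows, from 250 bases before to 50 after the start, for 65 of the 73 genes. The members are spread over 17 chromosomes, and Mrps11 and Mrpl46 are the only 2 that are direct neighbours. These 2 genes run in opposite directions, and their windows overlap by 141 bases. Capitals mark matches, on either strand, to CCGGAAG (bound by ETS family factors), AAGATGG (YY1) or the NRF1 core, a pair of GCGC separated by any 2 bases. The windows of Mrps11 (chr7:78782881-78783180, plus strand) and Mrpl46 (chr7:78783040-78783339, minus strand) are given first, then those of Mrps26 (chr2:130563507-130563806, plus strand) and Mrps27 (chr13:99344536-99344835, plus strand), the members with the smallest p, and of Mrps6 (chr16:92058086-92058385, plus strand), the member with the highest change.
Mrps11: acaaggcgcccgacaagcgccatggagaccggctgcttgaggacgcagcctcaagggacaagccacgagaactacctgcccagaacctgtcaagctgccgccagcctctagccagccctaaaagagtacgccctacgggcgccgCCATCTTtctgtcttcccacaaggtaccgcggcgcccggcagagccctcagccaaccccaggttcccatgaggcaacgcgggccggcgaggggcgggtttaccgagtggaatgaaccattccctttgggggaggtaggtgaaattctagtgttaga
Mrpl46: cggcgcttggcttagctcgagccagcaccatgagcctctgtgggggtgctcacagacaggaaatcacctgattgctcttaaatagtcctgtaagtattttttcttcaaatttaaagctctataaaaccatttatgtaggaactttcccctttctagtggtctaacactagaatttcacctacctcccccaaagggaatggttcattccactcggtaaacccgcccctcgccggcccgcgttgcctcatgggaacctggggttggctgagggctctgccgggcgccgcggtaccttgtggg
Mrps26: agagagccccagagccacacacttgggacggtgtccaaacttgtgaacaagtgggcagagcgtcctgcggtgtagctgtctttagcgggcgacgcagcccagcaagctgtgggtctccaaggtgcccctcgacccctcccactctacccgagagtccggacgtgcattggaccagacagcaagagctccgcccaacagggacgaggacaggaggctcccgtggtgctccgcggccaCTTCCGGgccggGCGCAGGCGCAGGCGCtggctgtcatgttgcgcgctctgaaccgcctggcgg
Mrps27: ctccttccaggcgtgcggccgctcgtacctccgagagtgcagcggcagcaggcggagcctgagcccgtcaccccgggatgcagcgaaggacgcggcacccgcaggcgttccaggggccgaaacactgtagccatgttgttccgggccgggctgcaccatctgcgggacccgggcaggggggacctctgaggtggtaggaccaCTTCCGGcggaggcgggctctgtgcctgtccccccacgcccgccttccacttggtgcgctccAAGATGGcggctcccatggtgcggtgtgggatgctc
Mrps6: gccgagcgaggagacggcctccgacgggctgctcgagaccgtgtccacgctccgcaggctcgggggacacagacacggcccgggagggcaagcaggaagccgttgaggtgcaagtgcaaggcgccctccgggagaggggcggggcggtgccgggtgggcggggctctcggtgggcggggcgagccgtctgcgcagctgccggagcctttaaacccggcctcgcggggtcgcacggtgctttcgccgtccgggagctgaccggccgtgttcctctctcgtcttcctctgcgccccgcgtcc

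Mrps11 holds 1 match to AAGATGG on the minus strand, and Mrpl46 holds no match. Of this pair, Mrps11 differed by -0.61 and Mrpl46 by -0.28, from 8.26 and 8.30 in WT to 7.78 and 8.22 in TG; Mrpl46 was named after its values were seen. Mrps26 holds 1 match to CCGGAAG and 2 overlapping matches to the NRF1 core across the start, and Mrps27 holds 1 match to CCGGAAG and 1 to AAGATGG. Mrps6 holds none of the 3. Among the 71 member windows CCGGAAG was found in 32.4%, against 8.86% of all 32851 windows in the table, AAGATGG in 18.3% against 6.34%, and the NRF1 core in 18.3% against 6.23%. CACGTG was found in 8.45% against 7.15%, CCAAT in 42.3% against 37.4%, and TATAAA in 7.04% against 13.6%. CCGGAAG and AAGATGG share letters at their ends, but no member window held overlapping matches of the 2. The median change was -0.23 for the 23 genes with CCGGAAG and -0.22 for the 42 without it, -0.26 against -0.22 for AAGATGG (13 and 52 genes), and -0.20 against -0.23 for the NRF1 core (13 and 52 genes). A match is a description of letters and no evidence of binding.

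Genes that work with the mitochondrial ribosome were read from lists chosen by function. None of their members passed limma over all probe sets in the deposited values. For their counts without overlap, the shares over all probe sets were 31.4% lower and 17.7% higher, and 39.8% and 14.7% above the filter level. After quantile normalization the shares over all probe sets were 26.4% and 26.2%. Of 4 measured subunits whose symbols do not follow the naming rule, Ptcd3 was lower without overlap (7.85 and 7.94 in WT, 7.48 and 7.66 in TG) and Gadd45gip1 higher without overlap (7.18 and 7.21 in WT, 7.46 and 7.68 in TG; log2 change 0.37, limma adjusted p = 0.312). Dap3 and Chchd1 overlapped between the groups, with changes of 0.10 and -0.14. No representative of the 73 genes read above both WT values on both TG arrays in the deposited values, though 4 of their other probe sets did (of Mrpl17, Mrpl33, Mrpl57 and Mrps25, named after their values were seen).

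The 15 mitochondrial aminoacyl-tRNA synthetases, which load amino acids onto mitochondrial tRNAs, had a median change of -0.26, with 13 lower and 1 higher without overlap. Of the 15, 13 lay below both WT values on TG mouse 2 as well, with medians of -0.38 on TG mouse 1 and -0.17 on TG mouse 2. On TG mouse 2, 38.8% of all probe sets lay below both WT values, and 43.2% of those above the filter level. The difference from the ribosomal proteins was not tested. Wars2 read 5.52 and 5.49 in WT and 5.08 and 5.22 in TG (log2 change -0.35), and Sars2 differed by -0.36. Nars2 was the exception, at 6.41 and 6.42 in WT and 6.82 and 6.97 in TG (log2 change 0.48, SE 0.11, limma adjusted p = 0.213). After quantile normalization the list's median was -0.06, with 6 lower and 3 higher without overlap.

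Of 20 genes of ribosome assembly and ribosomal RNA modification, 10 were lower and 2 higher without overlap (median -0.26). Ptcd1, a protein that binds mitochondrial RNA, read 7.43 and 7.38 in WT and 6.38 and 6.97 in TG (log2 change -0.73, SE 0.21, limma adjusted p = 0.286). Mpv17l2, needed for ribosome assembly, read 8.01 and 8.11 in WT and 7.57 and 7.41 in TG (log2 change -0.57, SE 0.11, limma adjusted p = 0.193). Mterf3, which acts on mitochondrial transcription and ribosome formation, was higher, at 8.28 and 8.29 in WT and 8.67 and 8.71 in TG (log2 change 0.40, SE 0.10, limma adjusted p = 0.226). Rcc1l differed by -0.60. After quantile normalization the list's median was -0.10, with 5 lower and 4 higher without overlap. The 8 measured translation factors had a median of -0.11, with 4 lower and none higher without overlap, and Gfm1, an elongation factor, differed by -0.29. After quantile normalization their median was 0.02, with 3 lower and 3 higher. The 8 genes of mitochondrial DNA transcription and RNA stability had a median of -0.11, with 3 lower and none higher without overlap. Their direction turned after quantile normalization, to a median of 0.10 with 2 lower and 4 higher.

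The most similar gene groups are the respiratory chain, which the mitochondrial ribosome supplies, and the cytosolic ribosome. The 79 oxidative phosphorylation genes had a median of -0.19 (-0.35 on TG mouse 1 and -0.02 on TG mouse 2), with 40 lower and 2 higher without overlap. Over all probe sets the shares were 31.4% lower and 17.7% higher, and 39.8% and 14.7% above the filter level. The 71 cytosolic ribosomal protein genes had a median of -0.03 (-0.08 and 0.02), with 16 lower and 9 higher without overlap. They were far brighter, with a median signal of 12.38 and a highest value of 12.96, where the highest deposited value was 13.03. The median signal was 8.27 for the members and 9.75 for oxidative phosphorylation. The part of signal level in the contrast was not tested. The 3 groups were compared with the same WT arrays, and the difference between them was not tested. After quantile normalization the medians were -0.05 for the members, -0.05 for oxidative phosphorylation and 0.01 for cytosolic ribosomal proteins.

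**Figure D4:**
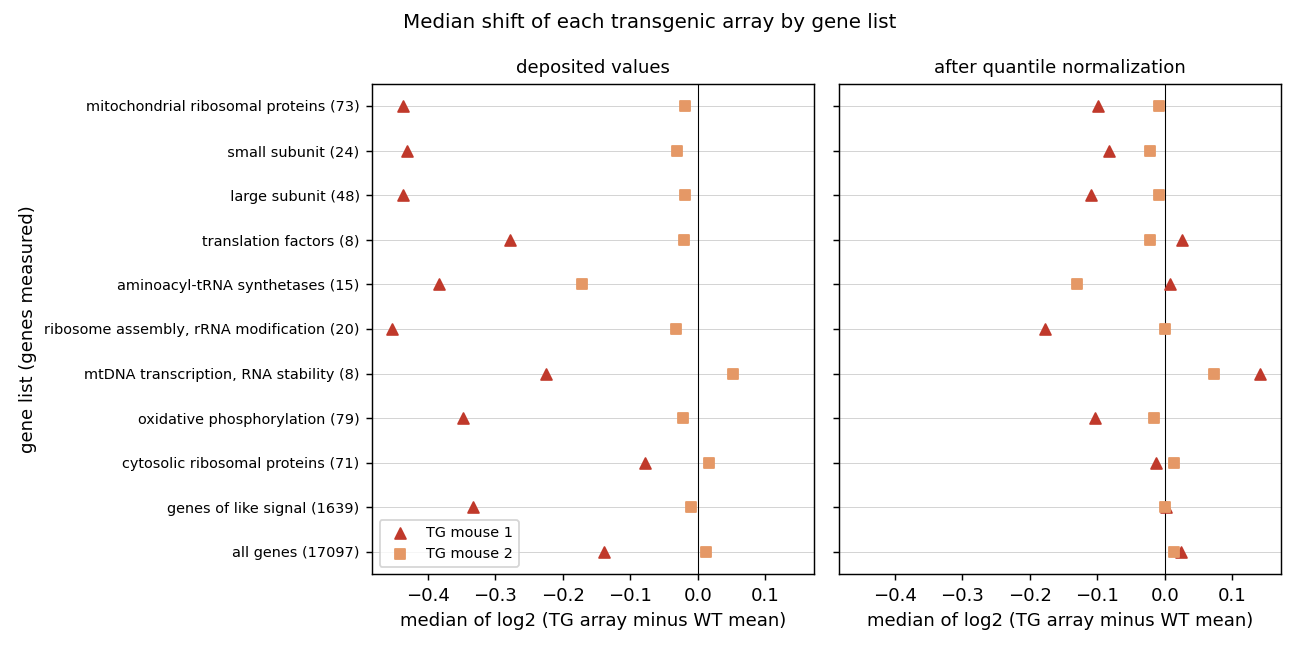
Each row is a gene list with the number of genes measured, and each point is the median over its genes of the log2 signal on 1 TG array minus the WT mean, for deposited values (left) and after quantile normalization (right). On the left TG mouse 1 lies at -0.44 for the mitochondrial ribosomal proteins and at -0.08 for the cytosolic ones, whose median signal was higher (12.38 against 8.27). On the right both TG mice lie within 0.18 of 0 for every list drawn.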

How the data were processed

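Gene expression was measured in total RNA on 4 Affymetrix arrays, 2 per group. The authors deposited 1 table of normalized log2 values per probe set (2.01 to 13.03), whose normalization method the sources used here do not name. Those log2 values were used as deposited, with the 104 control probe sets set aside, and the number of arrays limits the precision. Probe sets were named through the platform annotation: 28898 had 1 gene, 551 several and 15588 none. Groups were taken from the sample titles.

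TG was compared with WT by limma 3.58.1 (R 4.3.3; lmFit and eBayes, residual degrees of freedom 2, prior 2.69), with Benjamini-Hochberg adjustment over all 45037 probe sets and a threshold of 0.05. The scripts were tested on simulated data. Alternatives were a filter at the 40th percentile of mean signal, quantile normalization, median centring, the gene mean over probe sets, trended and robust variances, a replicate block, and each array left out. Shared replicate numbers did not pair the mice (correlation of deviations 0.01). P-values measure the spread between these mice, which the labels describe as separate samples.

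The members, gene lists and tests were chosen with earlier results of these data known, and the promoter motifs with the promoters in view. Members were named by rule: per direction up to 12 by smallest limma p, the 4 brightest and 2 dimmest representatives, genes whose probe sets differ in sign by more than 0.5, and up to 4 per role list by smallest p, as in the companion lists. Genes outside the rule are marked in the text, apart from markers and sex-linked genes. Figures were drawn with matplotlib 3.10.9.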

Additional observations from a re-analysis of the deposited data

How the results depend on the processing

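Under the filter, median centring, the gene mean, trended and robust variances and the replicate block, 0 of the 73 members passed limma. With the replicate block the smallest adjusted p by limma among members was 0.272, and 15 probe sets passed in all. The members' median change moved from -0.23 to -0.054 under quantile normalization, and from -0.44 to -0.019 with each array left out in turn. Leaving out single arrays gave 0 to 53 members passing and 0 to 19110 probe sets. Of all probe sets, 21 passed in the deposited values (4 lower, 17 higher), 51 with the filter (13 lower, 38 higher), 614 after median centring (425 lower, 189 higher) and 870 after quantile normalization (468 lower, 402 higher). The cause was not tested.

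After quantile normalization 19 of the 73 members turned from below to above 0, leaving 45 below and 28 above, and after median centring 55 lay below and 18 above. Of all 45037 probe sets, 21866 lay below 0 after quantile normalization and 21734 after median centring. The values that follow are those of the 33 named members only. With the gene mean Mrpl50 was -0.0093 and Mrps23 -0.13. After median centring Mrpl10 was 0.038 and Mrps14 0.0043, and after quantile normalization Mrpl10 was 0.17, Mrpl12 0.086 and Mrps14 0.086. With each array left out in turn the change ran from -0.22 to 0.19 for Mrpl10, from -0.13 to 0.46 for Mrpl15, from -0.41 to 0.061 for Mrpl24, from -0.11 to 0.12 for Mrpl32, from -0.24 to 0.29 for Mrpl42, from -0.0091 to 0.28 for Mrpl9, from -0.18 to 0.085 for Mrps14, from -0.21 to 0.39 for Mrps23, from -0.014 to 0.10 for Mrps36 and from -0.11 to 0.58 for Mrps6. With 2 arrays a group, and TG mouse 1 apart from the others, small differences of single members cannot be resolved.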
